A study of Mus musculus with 3 samples.

Results

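The 9 transcription regulators described here, which mark or specify nephron progenitors, are Six2, Cited1, Osr1, Eya1, Sall1, Wt1, Pax2, Meox1 and Meox2, and their levels were followed in cultured embryonic mouse kidneys. They were chosen by name, each was represented by the probe set (a group of array probes for a single transcript cluster) annotated to it alone, and they are 9 of 19938 genes measured in this way. C57BL/6 embryos supplied the kidneys at embryonic day 11.5, about the time the bud enters the metanephric mesenchyme, and culture on Transwell filters lasted 48 h. One group was grown in serum-free DMEM with retinoic acid, which cells make from vitamin A, at a dose not given in the sources used here. Another was grown in serum-free DMEM alone, and the last in DMEM with 10% fetal bovine serum. Each medium has 1 Affymetrix Mouse Gene 1.0 ST array, 3 arrays in all. The labels give neither the number of kidneys per array nor the sex of the embryos, and they name no vehicle for the retinoic acid. The groups share strain, stage and culture time. An explant holds ureteric epithelium, stroma, vessels and blood cells besides progenitors. A different number of progenitors, different RNA per progenitor, and RNA of the same gene from other cells therefore cannot be told apart.

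In the developing kidney, nephron progenitors form a cap of mesenchyme around each tip of the ureteric bud. They either renew themselves or, under a Wnt signal from the bud, aggregate and turn into epithelium. Osr1, Eya1, Pax2, Sall1 and Wt1 act early, when the mesenchyme is specified and draws in the bud, while Six2 holds cap cells in the undifferentiated state and Cited1 marks the cells not yet induced. Retinoic acid is known in this organ mainly for its action through stromal cells on Ret, the receptor that drives branching of the bud.

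With 1 array per medium there is no error and no test, and every difference below describes these 3 arrays. Levels are log2 probe set intensities, and a difference of 1 is 2-fold. To be counted, a gene had to differ 2-fold or more with its higher level reaching a floor of 7.12, the median of all gene-level values. All 9 regulators lay above that floor on every array. Each has a single probe set, so no second probe set checks its value. As a guide to size only, the log2 difference between media was compared between probe sets of a gene, for other genes with several. These differences disagreed by up to 0.28 (95th percentile) for retinoic acid against serum-free and for serum-free against serum. For retinoic acid against serum they disagreed by up to 0.33. Probe sets of a gene are read on the same arrays, so this guide holds no spread between cultures or arrays. Of 5 retinoid response genes, 4 were at least 2-fold higher with retinoic acid against serum-free, against 1.05% of all genes that reached the floor. Among them was Rarb, a retinoic acid receptor gene, at 11.37 with retinoic acid, 8.43 in serum-free medium and 10.41 in serum. In that comparison Cyp26b1 differed by 3.65, Dhrs3 by 3.32 and Stra6 by 1.56, while Crabp2 was at -0.49.

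The first comparison asked what adding retinoic acid to serum-free medium went with in these regulators. With it, Cited1 and Meox2 were at least 2-fold lower and Meox1 was at least 2-fold higher. Osr1 and Six2 lay just short of 2-fold lower, Eya1 and Wt1 differed by about 0.50 in opposite directions, and Sall1 and Pax2 differed least. Of the 9 regulators, 2 were thus at least 2-fold lower, against 0.613% of the 10111 genes at or above the floor, and 1 was at least 2-fold higher, against 1.05%. The median difference over the 9 was -0.50, with 6 below 0, 2 above 0 and 1 at exactly 0, while the median over all genes at or above the floor was 0.00. At 1.5-fold, 4 were lower (Cited1, Meox2, Osr1 and Six2), against 1.94% of genes, and 1 was higher (Meox1), against 2.41%. The regulators were picked with earlier results of these arrays known, so this contrast is a description of them and nothing is read from it about the set.

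**Figure D1:**
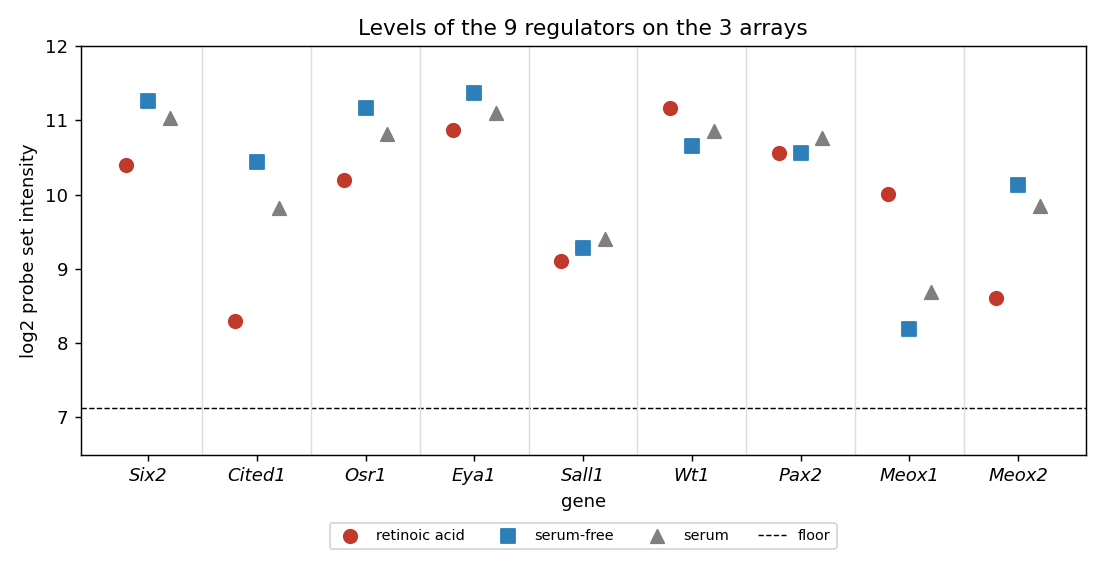
Log2 probe set intensity (vertical axis) of each regulator on the retinoic acid array (circles), the serum-free array (squares) and the serum array (triangles), with 1 array per medium and the floor of 7.12 as a dashed line. Cited1 and Meox2 were lowest with retinoic acid, Meox1 was highest with it, and Sall1 and Pax2 lay close together on the 3 arrays.

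Among the markers of the undifferentiated cap, Cited1 had the larger difference. Cited1 encodes a co-regulator that does not bind DNA itself and works through the acetyltransferases CBP and p300. Its level was 8.30 with retinoic acid, 10.44 in serum-free medium and 9.82 in serum, or intensities of 316, 1387 and 906. It was 4.39-fold lower with retinoic acid than without (-2.13), the lowest difference of all 10111 genes. Six2, the homeodomain factor that keeps progenitors from differentiating, was at 10.39 with retinoic acid, 11.25 in serum-free medium and 11.03 in serum. The retinoic acid array was thus the low one for both genes, and the difference of Six2 was -0.86, or 1.82-fold lower.

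Cited1 lies on the X chromosome, and transcripts that depend on sex differed between the same arrays. Xist, the RNA that coats the inactive X of female cells, was at 9.79 with retinoic acid, 11.48 in serum-free medium and 10.84 in serum. Eif2s3y, on the Y chromosome, had the opposite order, at 8.64 with retinoic acid, 7.46 in serum-free medium and 8.38 in serum. Kdm5d was at 8.40 with retinoic acid, 7.21 in serum-free medium and 7.74 in serum, and Uty at 8.38 with retinoic acid, 7.29 in serum-free medium and 7.93 in serum, so both were likewise highest with retinoic acid. The part of embryo sex in the values of Cited1 was not tested, and with 1 array per medium sex and medium cannot be told apart.

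Meox1 and Meox2 are homeobox genes of a single family, best known for their work in somites and muscle precursors, and both are also expressed in the renal mesenchyme. Their differences with retinoic acid had opposite signs. Meox2 was at 8.61 with retinoic acid, 10.13 in serum-free medium and 9.84 in serum, so that it was lowest with retinoic acid, by 2.87-fold against serum-free medium (-1.52). Meox1 was at 10.00 with retinoic acid, 8.19 in serum-free medium and 8.69 in serum, which made it 3.50-fold higher with retinoic acid (1.81). Among the 10111 genes, Meox2 had the 19th lowest difference and Meox1 the 27th highest. Of 10 somite and skeletal muscle markers, 10 were measured and 0 reached the floor on any array. Their summed intensity was 552 with retinoic acid, 525 in serum-free medium and 532 in serum. Myf5 and Pax3, which define muscle precursors, were at 4.24 and 4.82 on each array.

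The stretches of DNA before the starts of Cited1 and Meox2 are shown because these regulators were the 2 at least 2-fold lower with retinoic acid. RefSeq (GRCm38.p6) gave entries for Cited1, Meox2, Six2, Pax2 and Sall1 in the table used. Each line holds the 250 bases before the outermost start listed, with matches to TATAAA on either strand in capitals. The Cited1 window is chrX:102252182-102252431 on the minus strand and the Meox2 window is chr12:37108290-37108539 on the plus strand.
Cited1: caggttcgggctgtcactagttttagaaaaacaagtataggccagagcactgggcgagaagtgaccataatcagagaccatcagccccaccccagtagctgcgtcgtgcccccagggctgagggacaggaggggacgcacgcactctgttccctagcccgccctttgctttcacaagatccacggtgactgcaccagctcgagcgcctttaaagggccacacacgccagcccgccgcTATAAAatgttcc
Meox2: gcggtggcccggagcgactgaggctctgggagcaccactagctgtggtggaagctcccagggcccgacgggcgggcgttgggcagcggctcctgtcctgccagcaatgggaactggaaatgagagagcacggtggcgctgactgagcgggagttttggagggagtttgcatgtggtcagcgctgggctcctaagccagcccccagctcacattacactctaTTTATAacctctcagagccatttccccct
The TATAAA match lay at -13 to -8 from the start in Cited1, and at -29 to -24 on the opposite strand in Meox2. Of 32817 such windows in the table, 12.4% hold TATAAA. A core motif of retinoic acid receptors, AGGTCA, was searched on both strands and was not among these letters in either window, while 14.0% of all windows hold it. Of the 11 windows of the 5 regulators with an entry, 1 held it, the window of the innermost Cited1 start, at -217 to -212 on the opposite strand. Direct repeats of the retinoid receptor motif, with the usual degenerate letters and a spacer of 1, 2 or 5 bases, were in 0 of the 11 windows, against 0.165%, 0.174% and 0.0884% of all windows. Matches and their absence describe these windows only, and no binding was measured.

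Of the early regulators, Osr1 differed most. Osr1 encodes a zinc finger factor of the intermediate mesoderm, the tissue from which the kidney arises. It was at 10.19 with retinoic acid, 11.16 in serum-free medium and 10.82 in serum, and so was 1.96-fold lower with retinoic acid than without (-0.97). Eya1, a co-activator and phosphatase that works with Six2 and its relatives, was at 10.87 with retinoic acid, 11.37 in serum-free medium and 11.10 in serum, a difference of -0.50. Sall1, a zinc finger factor needed for the bud to invade the mesenchyme, was at 9.11 with retinoic acid, 9.29 in serum-free medium and 9.40 in serum, a difference of -0.17. For all 3 the retinoic acid array was the lowest, but the difference of Sall1 was smaller than the guide of 0.28.

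Wt1 and Pax2 did not share this order. Wt1 encodes a zinc finger factor needed for survival of the metanephric mesenchyme and later for podocytes, the filtering cells of the glomerulus. It was at 11.16 with retinoic acid, 10.65 in serum-free medium and 10.85 in serum, a difference of 0.51, or 1.42-fold higher. Of 5 measured podocyte genes, 1 reached the floor, Podxl at 9.17 with retinoic acid, 9.17 in serum-free medium and 9.09 in serum, and Nphs1, which defines podocytes, was at 5.47 on each array. Pax2, a paired box factor of both the mesenchyme and the bud epithelium, was at exactly 10.56 with retinoic acid and in serum-free medium, and at 10.77 in serum. Of the 10111 genes, 35.4% also had exactly equal values on these 2 arrays. The median polish by which RMA combines probes can return such ties, so an equal value is no measure of equal expression.

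**Figure D2:**
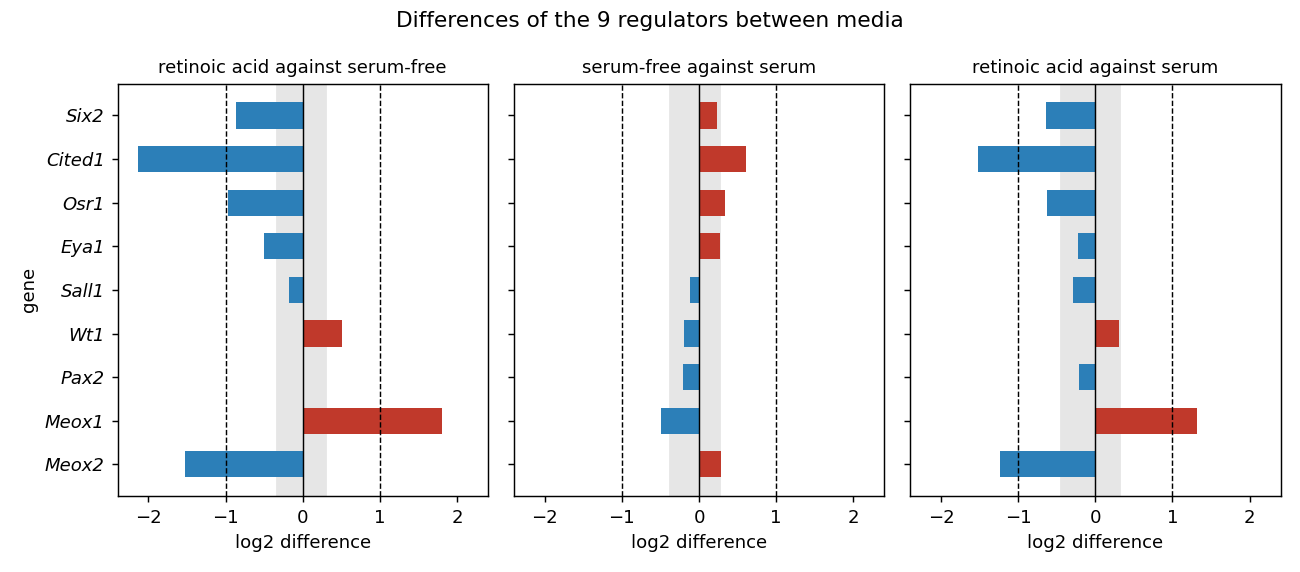
Log2 difference (horizontal axis) of each regulator in retinoic acid against serum-free, serum-free against serum, and retinoic acid against serum, from 1 array per medium. Dashed lines mark 2-fold and the grey band the 5th to 95th percentile of all genes at or above the floor, and only Cited1, Meox2 and Meox1 pass a dashed line.

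The second comparison asked how the regulators differed when serum was left out. None was at least 2-fold higher or lower, 0 of 9 in each direction, against 0.876% higher and 0.699% lower of the 10156 genes that reached the floor. At 1.5-fold, 1 was higher, against 2.01% of genes, and 0 were lower, against 2.07%. That 1 was Cited1, with a difference of 0.61, or 1.53-fold higher without serum. Osr1 at 0.34, Meox2 at 0.29, Eya1 at 0.27 and Six2 at 0.23 were also above 0. Meox1 was at -0.49, or 1.41-fold lower without serum, and Pax2 at -0.21, Wt1 at -0.20 and Sall1 at -0.12. Only Cited1, Meox1, Osr1 and Meox2 passed the guide of 0.28, Meox2 narrowly. Which ones passed it changed with the processing. With median centring Osr1 was at 0.27 and Meox2 at 0.22, and with cyclic loess Eya1 was at 0.30. The median over the 9 was 0.23, against -0.0041 over all genes at or above the floor, and the mean over the 9 was 0.08.

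The third comparison set retinoic acid against serum. Here 2 of 9 regulators were at least 2-fold lower, against 0.816% of 10169 genes, and 1 was at least 2-fold higher, against 1.04%. Cited1 was 2.87-fold lower with retinoic acid than in serum (-1.52) and Meox2 was 2.35-fold lower (-1.23). Meox1 was 2.49-fold higher (1.32). Six2 and Osr1 differed by -0.63 each, Wt1 by 0.31, Sall1 by -0.29, Eya1 by -0.23 and Pax2 by -0.21, of which the last 4 were within the guide of 0.33. Wt1 was past it with cyclic loess, at 0.35, and Sall1 with median centring, at -0.35. At 1.5-fold, 4 were lower, against 2.84% of genes, and 1 was higher, against 2.46%. The median over the 9 was -0.29. The 3 comparisons share arrays, so they are not independent of each other.

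The order of the media differed among the regulators. From high to low it was serum-free, serum, retinoic acid for Six2, Cited1, Osr1, Eya1 and Meox2. It was the reverse, retinoic acid, serum, serum-free, for Meox1 and Wt1. Sall1 ran serum, serum-free, retinoic acid, and Pax2 was highest in serum with the others tied. No spread between replicates was measured, so neighbours in these orders cannot be told apart by an error. The serum and serum-free levels of Six2, Eya1, Sall1, Wt1 and Pax2 lay within the guide of 0.28 of each other.

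With retinoic acid against serum-free, other genes of the cap mesenchyme differed less than Cited1, Meox1 and Meox2. A list of 19 such genes, all measured and 18 of them reaching the floor, held none past 2-fold in either direction, and its median was -0.01. Over all genes that reached the floor the shares were 1.05% higher and 0.613% lower, so a count of 0 is near them. The largest differences of the list were in Tmem100 at 0.56, Crym at -0.50, Dpf3 at 0.43 and Spock2 at -0.42. Gdnf, the ligand that draws in the ureteric bud and a known target of Eya1, Pax2 and Sall1, was at 9.15 with retinoic acid, 9.31 in serum-free medium and 9.41 in serum. Without serum, 1 of the 19 was at least 2-fold lower, against 0.699% of all genes that reached the floor. It was Tmem100 at -1.10, a larger difference than that of any of the 9 regulators in that comparison. The median of the list was 0.00. Kif26b, a kinesin gene known as a Sall1 target, differed by 0.41, Robo2, a receptor gene that limits where Gdnf is made, by 0.37 and Crym by 0.36.

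Of 15 close relatives measured, 10 reached the floor with retinoic acid against serum-free, and the median over the 15 was 0.00. In that comparison 0 reached 2-fold in either direction, against 1.05% higher and 0.613% lower of all genes that reached the floor. Cited2, a relative of Cited1, was at 10.49 with retinoic acid, 10.88 in serum-free medium and 10.97 in serum. Cited4 was at 7.48 with retinoic acid, 7.48 in serum-free medium and 7.84 in serum. Osr2, the relative of Osr1, was at 9.19 with retinoic acid, 9.35 in serum-free medium and 9.99 in serum, so it did not share the higher serum-free level of Osr1. Pax8, the relative of Pax2 that comes on as nephrons form, was at 10.15 with retinoic acid, 9.45 in serum-free medium and 10.62 in serum. It was the 1 relative at least 2-fold lower without serum (-1.17), against 0.699% of all genes that reached the floor. Eya2 differed by -0.39 with retinoic acid against serum-free and by -0.32 without serum.

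Transcription partners held 0 of 11 measured genes at least 2-fold either way in each of the 3 comparisons, with 9 of the 11 reaching the floor. Over all genes that reached the floor, the shares by comparison and direction were 0.613% to 1.05%. This list takes in the HOX11 proteins, which act with Eya1 and Pax2 on Six2 and Gdnf, and the factors through which Wnt signals act. Hoxd11 differed by -0.29 with retinoic acid against serum-free (10.20 with it and 10.48 without), Hoxd10 by -0.36, Dach1, a partner of the Six2 and Eya1 families, by 0.34 and Ctnnb1, the gene of beta-catenin, by 0.30. Hoxa11 was at 9.13, 9.13 and 9.11 with retinoic acid, in serum-free medium and in serum. Without serum the largest differences among partners at or above the floor were in Dach1 at -0.43, Lef1 at -0.38, Tcf7l1 at 0.25 and Tcf7l2 at 0.16.

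Signals that maintain or release progenitors held 0 of 17 genes at least 2-fold either way in each of the 3 comparisons. Of the 17, 14 reached the floor with retinoic acid against serum-free, and 15 did in each of the other comparisons. Over all genes that reached the floor, the shares by comparison and direction were 0.613% to 1.05%. The median over the 17 was 0.08 for retinoic acid against serum-free. Fat4 and Dchs1, cadherin genes that promote differentiation of progenitors, were higher with retinoic acid by 0.52 and 0.49. Fat4 was at 10.45 with retinoic acid, 9.93 in serum-free medium and 9.53 in serum. Fgf9, a growth factor that keeps progenitors alive, differed by 0.50 with retinoic acid and Bmp4 by 0.47. Without serum Bmp4 was at -0.73, Wnt11 at -0.67, Fgf2 at -0.57 (its serum-free level of 6.94 lay under the floor) and Fat4 at 0.40.

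Early nephron genes come on when progenitors leave the cap. With retinoic acid against serum-free, 16 of the 19 measured reached the floor. Of these, 4 were higher by 2-fold or more and 0 were lower by that size, against 1.05% and 0.613% of all genes that reached the floor. The median over the 19 was 0.00. The inducer Wnt4 was at 8.92 with retinoic acid and 7.49 without, Papss2 at 8.14 and 6.84, Lhx1 at 8.07 and 6.79, and the Notch ligand gene Dll1 at 7.43 and 6.42, the last 3 with serum-free levels under the floor. Without serum 18 of the 19 reached the floor, and 7 were lower by 2-fold or more and 0 higher. The shares over all genes that reached the floor were 0.699% and 0.876%, and the median over the 19 was -0.65. The arrays on which Wnt4 and Lhx1 were lowest and on which Six2 and Cited1 were highest were thus the same one, serum-free medium. Not every early nephron gene had this order. With retinoic acid against serum-free, 8 of the 19 were above 0, 8 were below 0 and 3 were at exactly 0. Dkk1, a Wnt antagonist gene, was at 7.86 with retinoic acid, 8.82 in serum-free medium and 9.78 in serum. The summed intensity of the 19 was also lowest with retinoic acid, at 10583, against 11397 in serum-free medium and 17058 in serum.

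**Figure D3:**
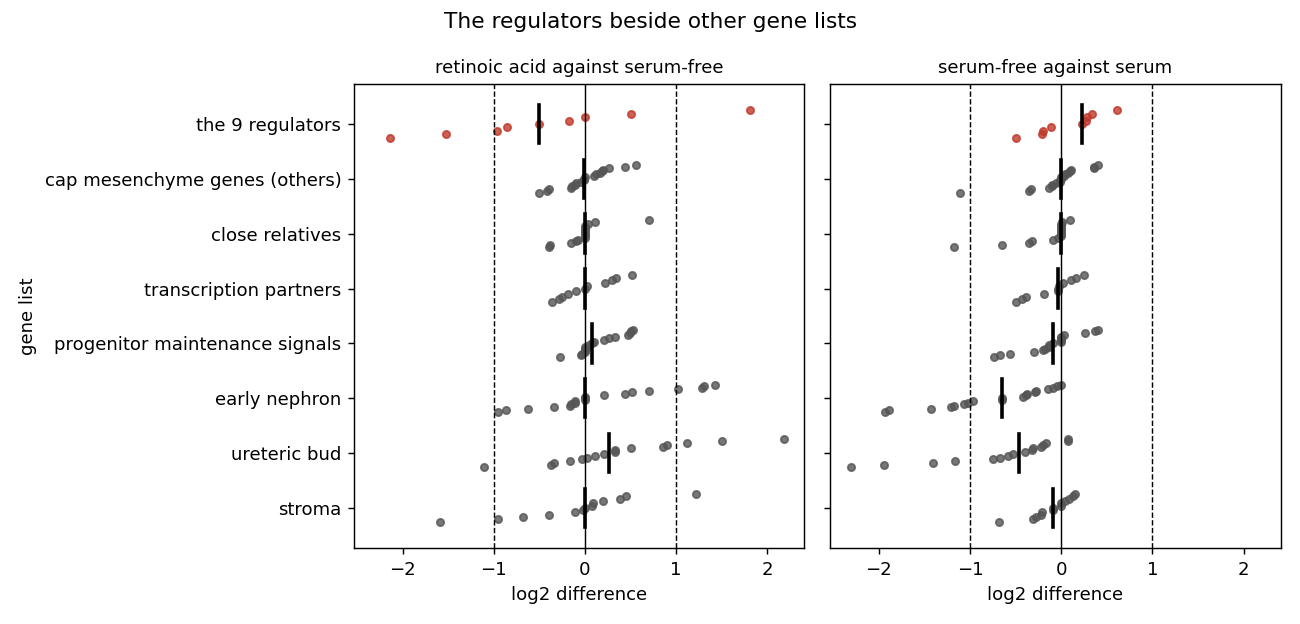
Log2 difference (horizontal axis) of every measured gene in each list (points, 1 row of points per list) for retinoic acid against serum-free and serum-free against serum, with the list median as a thick line and 2-fold as dashed lines. The 9 regulators spread from -2.13 to 1.81 with retinoic acid, where the 19 other cap mesenchyme genes stayed within 2-fold, and without serum Tmem100 of those 19 was past it at -1.10.

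Markers of other cells in the explant differed between the same arrays. For 12 macrophage genes the summed intensity was 6697 with retinoic acid, 9541 in serum-free medium and 3107 in serum. Without serum 9 of the 12 reached the floor, and all 9 were at least 2-fold higher, against 0.876% of all genes that reached the floor. For 9 endothelial genes the summed intensity was 7777 with retinoic acid, 9186 in serum-free medium and 6493 in serum. For 7 genes of neurons and glia it was 1593 with retinoic acid, 2989 in serum-free medium and 1629 in serum. These groups were thus highest on the serum-free array, as were Cited1 and Six2. For 16 ureteric bud genes it was 12607 with retinoic acid, 8224 in serum-free medium and 13305 in serum. For 8 smooth muscle genes it was 2808 with retinoic acid, 4788 in serum-free medium and 11064 in serum. The 13 stroma genes differed less in sum, at 19310 with retinoic acid, 19878 in serum-free medium and 21000 in serum. A sum follows its brightest genes and can hide opposite signs. With retinoic acid against serum-free, 11 of the 16 bud genes were above 0 and 5 below, from -1.10 to 2.18. Of the 13 stroma genes, 6 were above 0, 6 below and 1 at exactly 0, from -1.59 to 1.22. No marker was at an intensity of 0. The part of cell makeup in the values of the regulators was not tested.

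The genes most like Cited1, Meox2 and Meox1 over the 3 arrays were named by the distance between log2 levels centred on each gene's own mean, among 9994 named genes at or above the floor. For Cited1 they were Tacr3 at a distance of 0.24, Ccl11 at 0.25 and Xist at 0.37. Tacr3, a tachykinin receptor gene, was at 5.69 with retinoic acid, 7.49 in serum-free medium and 7.14 in serum, and Ccl11, a chemokine gene, at 6.99 with retinoic acid, 8.88 in serum-free medium and 8.16 in serum. The retinoic acid levels of both lay under the floor. For Meox2 the nearest was Dkk2, a gene of Wnt regulation, at a distance of 0.02, with levels of 6.92 with retinoic acid, 8.44 in serum-free medium and 8.13 in serum. Lum, the gene of the matrix protein lumican, followed at 0.14 and Epha3, an ephrin receptor gene, at 0.15. Lum is also in the stroma list. With retinoic acid, Dkk2, Lum (6.98) and Epha3 (6.63) lay under the floor. For Meox1 they were Adamtsl4 at 0.07, Adh1, an alcohol dehydrogenase gene, at 0.10 and Lrfn5 at 0.11. Adh1 was at 9.26 with retinoic acid, 7.38 in serum-free medium and 8.01 in serum. Adamtsl4 lay under the floor in serum-free medium (6.61) and in serum (7.01), as did Lrfn5 (6.25 and 6.60). With 3 arrays many genes share a pattern by the nature of the measure, and nothing is said of shared control.

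**Figure D4:**
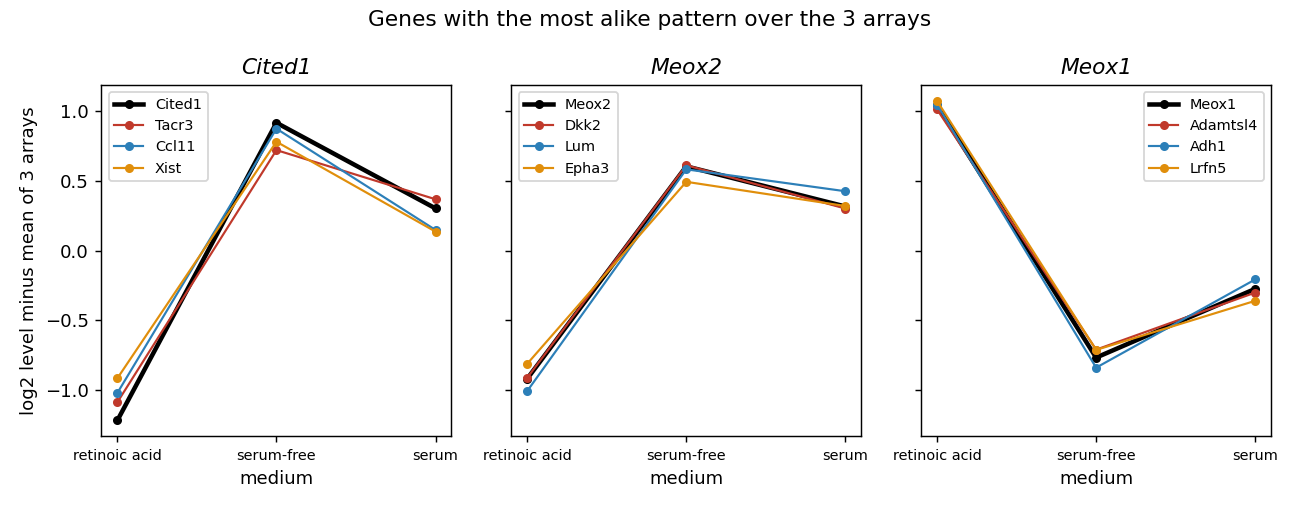
Log2 level minus the gene's own mean over the 3 arrays (vertical axis) by medium, for Cited1, Meox2 and Meox1 (thick black lines) and the 3 genes nearest to each. Tacr3, Ccl11 and Xist dip with retinoic acid as Cited1 does, and Adamtsl4, Adh1 and Lrfn5 are highest with it as Meox1 is.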

How the data were processed

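Gene expression was measured on 3 Affymetrix Mouse Gene 1.0 ST arrays, 1 per medium, from 250 ng of total RNA. The deposited intensity values are on a linear scale. The submitters' processing notes name Affymetrix Expression Console 1.1 and RMA as their source, without settings.

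From these, log2 levels were taken with no offset or further scaling. Of 35556 probe sets, 21789 carry exactly 1 symbol in the platform annotation, and the highest mean decided among several of a gene, giving 19938 genes. The number of arrays limits the precision. No test was possible, and the paired check does not apply. Named genes were the 9 regulators, up to 4 genes of largest absolute difference at or above the floor in each list described, all measured retinoid and sex transcripts, a few close relatives, and the 3 nearest patterns of each regulator with a log2 range of at least 1. Genes picked outside this rule after their values were seen are Gdnf, Hoxa11, Dkk1, Nphs1, Myf5 and Pax3. Dkk1 falls within the rule only for retinoic acid against serum. The regulators and lists were chosen with earlier results of these data known. Alternatives were offsets of 16 and 64, median centring, cyclic loess (limma 3.58.1 in R 4.3.3), averaged probe sets, no floor and a 1.5-fold rule. The calling and pattern steps were tested on simulated data. Protein sequences were not used here.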

Additional observations from a re-analysis of the deposited data

How the results depend on the processing

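Every alternative kept the 3 regulators past 2-fold in retinoic acid against serum-free and against serum, and 0 past it without serum, except the 1.5-fold rule. Under that rule 4 regulators were lower with retinoic acid against serum-free (1.94% of all genes), 4 were lower against serum (2.84%), and 1 was higher without serum (2.01%). Over offsets of 16 and 64, median centring, cyclic loess and averaged probe sets, 135 differences of single regulators were recomputed. All 135 moved by less than the 95th percentile of disagreement between probe sets of a gene. Averaged probe sets and no floor could not change the regulators, since each has a single probe set and lies above the floor on every array. That percentile, 0.28 or 0.33, is also larger than several of the differences, so staying under it is a weak check. With retinoic acid against serum-free, Cited1 ranged from -2.13 to -1.93, Meox2 from -1.52 to -1.38 and Meox1 from 1.61 to 1.82. Six2 ranged from -0.86 to -0.83, and Osr1 from -0.97 to -0.93, so neither reached 2-fold. Pax2 ranged from -0.00 to 0.01, so it has no direction. Median centring moved the median of all genes by -0.07 for serum-free against serum. With 64 added, the counts over all genes were 67 higher and 27 lower in place of 106 and 62 for retinoic acid against serum-free, 53 and 44 in place of 89 and 71 for serum-free against serum, and 58 and 41 in place of 106 and 83 for retinoic acid against serum. No paired analysis was possible because each medium has 1 array, and no array could be left out. Arrays have no read depth, and background takes a larger part of low levels.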
